A study of Mus musculus with 18 samples.

Results

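The 10 genes described here are part of the bone morphogenetic protein (BMP) pathway in mouse astrocytes in culture. Astrocytes are glia that feed neurons, clear transmitter and shape synapses. They were the ligands Bmp4 and Bmp7, the receptor Bmpr1a, the inhibitors Smad6, Smad7 and Bambi, and the target genes Id1, Id2, Id3 and Id4. They were taken by symbol from a table of read counts for 26301 genes, and all 10 were found and passed the expression filter that 16539 genes passed.

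BMPs are secreted dimers that bind a complex of type I and type II receptor kinases, which phosphorylate Smad1, Smad5 and Smad9. These join Smad4 in the nucleus and switch on direct targets, among them the Id genes and the feedback inhibitors Smad6 and Smad7. Id proteins carry a helix-loop-helix domain without a DNA-binding region, so they capture the E proteins that proneural factors need as partners. In the developing brain, BMP signalling favours astrocytes over neurons and oligodendrocytes.

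Total RNA was sequenced from 18 libraries in 6 groups of 3, namely astrocytes with neurons at days 2, 4 and 7 and astrocytes alone at days 2, 4 and 7. The series title puts its question as which astrocyte transcripts neuronal contact regulates. All astrocytes came from the cortex of newborn (P0) mice, were expanded in serum medium for about 2 weeks and were moved to serum-free N2 medium at confluence. Co-cultures also received hippocampal neurons of P0 mice positive for the red fluorescent protein TdTomato. All cells were then detached and sorted by TdTomato fluorescence, with astrocytes alone setting the gate for negative cells. The labels used here name no driver of TdTomato and do not say how many animals made a culture, so the p-values speak for the spread among these libraries, which may be technical. The labels give a replicate number 1 date in all 6 groups, which pairs each co-culture with a culture alone of the same number and day.

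Of the 18 libraries, 2 stood apart, and both had replicate number 1. The first, astrocytes alone at day 2 (replicate 1), held 3242459 reads with 92.5% on 1 gene. In it 3 reads were worth 20.2 CPM (reads scaled to a common library size and composition by the TMM method), and only 3 of the 10 genes had at least 10 reads. The second, a day 7 co-culture (replicate 1), held 8966485 reads with 40.5% on mt-Rnr2, a mitochondrial ribosomal RNA. The other 16 libraries had 13950111 to 32623556 reads, 3 reads were worth 0.0743 to 0.179 CPM in them, and each of the 10 genes had at least 25 reads in each of them. Astrocyte markers (9 or 10 of 10 with a read, summed 1018 to 5825 CPM) were present in those 16 libraries. The neuron list summed to 36.3 to 293 CPM, most of it Stmn2. In the ependyma and choroid plexus list, Foxj1 had a median of 227 CPM. The other genes of that list were near or at 0, with medians of 1.67 CPM for Ccdc153 and 0 for Ttr and Tmem212. The endothelial and mural list summed to 58.6 to 113 CPM, most of it the mural marker Pdgfrb (median 67.5 CPM). Of its endothelial genes, Kdr had 1.93 to 10.4 CPM and Cldn5 had no read in any library. Results below use all 18 libraries unless a value is said to be over the 16.

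The promoters of the 3 genes that differed between replicate numbers (Id2, Id3 and Id4) are shown because Id promoters are known places of Smad binding. Each runs from 250 bases before to 50 bases after the RefSeq start, on the gene's own strand and in build GRCm38.p6. Capitals mark matches to the GC-rich Smad motif (GGCGCC, which reads the same on both strands) or to the Smad-binding element (CAGAC, or GTCTG on the other strand). The positions are chr12:25096043-25096342, minus strand, for Id2, chr4:136143572-136143871, plus strand, for Id3 and chr13:48260866-48261165, plus strand, for Id4.
Id2: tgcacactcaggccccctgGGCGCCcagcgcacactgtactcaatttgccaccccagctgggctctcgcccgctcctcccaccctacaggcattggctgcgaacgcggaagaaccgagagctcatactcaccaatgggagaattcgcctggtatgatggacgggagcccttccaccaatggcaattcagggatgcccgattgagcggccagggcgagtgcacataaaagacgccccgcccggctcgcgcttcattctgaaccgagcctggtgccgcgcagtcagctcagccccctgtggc
Id3: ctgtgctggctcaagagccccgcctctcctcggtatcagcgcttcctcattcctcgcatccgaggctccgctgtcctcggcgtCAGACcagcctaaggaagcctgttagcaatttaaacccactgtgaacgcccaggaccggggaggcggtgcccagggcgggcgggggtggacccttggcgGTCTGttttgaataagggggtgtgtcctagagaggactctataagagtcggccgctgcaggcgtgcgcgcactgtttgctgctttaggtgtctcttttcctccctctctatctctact
Id4: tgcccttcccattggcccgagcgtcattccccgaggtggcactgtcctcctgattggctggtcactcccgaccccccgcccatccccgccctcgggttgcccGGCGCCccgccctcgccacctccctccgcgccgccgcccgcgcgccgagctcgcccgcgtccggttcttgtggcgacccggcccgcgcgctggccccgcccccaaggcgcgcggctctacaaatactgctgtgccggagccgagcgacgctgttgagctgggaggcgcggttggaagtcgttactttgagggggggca

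GGCGCC began 231 bases before the start of Id2 and 148 bases before that of Id4. The element CAGAC or GTCTG stood 167 and 68 bases before the start of Id3. Of 32851 promoters of the same length, 11.9% held GGCGCC and 49.6% held CAGAC or GTCTG, so these letters are common. Among the 10 genes, 6 had a promoter in the table, and beyond the 3 shown only Bmpr1a had a match (GGCGCC, 198 bases before the start), with no overlap between matches.

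The level of each gene per length was compared over the 16 libraries as CPM per kb of annotated exon. Id3 had the highest median, 60.2 CPM per kb with a range of 28.1 to 125, and Id1 followed with 53.3, from 31.6 to 99.7. Bmpr1a, the type I receptor that binds BMP2 and BMP4, had a median of 44.8 CPM per kb (22.7 to 66.3), and Id2 had 17.5 (6.24 to 34.0). The ranges of Id3, Id1 and Bmpr1a overlapped broadly, so their order is not firm. Smad7 (6.39), Id4 (5.63), Bambi (4.18) and Smad6 (3.73) formed a lower set, again with overlapping ranges. The ligands were lowest per length, Bmp4 with a median of 1.73 CPM per kb (0.538 to 2.64) and Bmp7 with 0.417 (0.189 to 0.748).

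**Figure D1:**
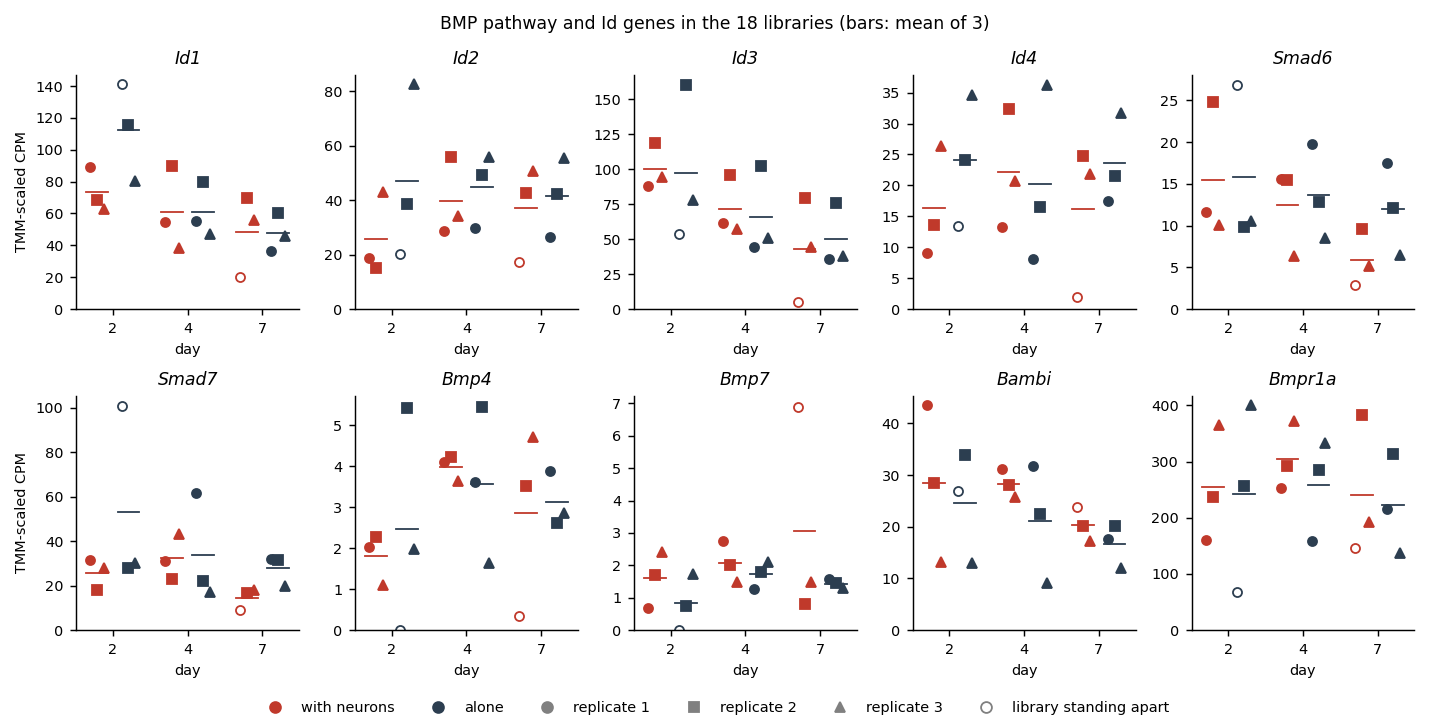
TMM-scaled CPM (vertical axes) of the 10 genes by day (horizontal axes), one point per library, with co-cultures in red left of astrocytes alone in dark blue. Bars are means of 3 libraries, shapes are replicate numbers and open points are the 2 libraries that stood apart, which hold the extreme values of several genes, such as 5.38 CPM for Id3 in the day 7 co-culture and 101 CPM for Smad7 in astrocytes alone at day 2.

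The first comparison asked how the genes differed in astrocytes with neurons against astrocytes alone. By edgeR's quasi-likelihood test with Benjamini-Hochberg adjustment, 0 of the 10 genes were called (adjusted p under 0.05) at day 2, day 4, day 7 or over their average. The background was the same, with 0% of the 16539 tested genes called in each of these contrasts, and 388, 61, 1549 and 689 genes at an unadjusted p under 0.05. None of the 10 had an unadjusted p under 0.05 there in this model, and DESeq2 likewise called 0 of the 10. The genes' median log2 difference was −0.30 at day 2, with 4 genes higher and 6 lower in co-culture, against 0.040 over all tested genes. It was 0.12 at day 4 (7 higher, 3 lower) against −0.014 over all genes, and −0.13 at day 7 (4 higher, 6 lower) against 0.0041.

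Among the targets, Id2 had the largest difference at day 2. It had 18.7, 15.2 and 42.9 CPM in replicates 1, 2 and 3 with neurons, against 20.2, 38.6 and 82.8 CPM in replicates 1, 2 and 3 alone. Co-culture was lower in each of the 3 pairs, although the groups overlapped. The log2 difference was −1.01 (SE 0.52, 95% interval −2.10 to 0.089, edgeR adjusted p = 1.0). Replicate 1 alone held 3 Id2 reads. Over the 16 libraries the difference was −1.25 (SE 0.47), and over all 28 alternatives it lay between −1.60 and −0.34. Its unadjusted p was 0.0696 in the edgeR model of group means, 0.0389 with the replicate block, 0.0169 over the 16 libraries, 0.0101 with both and 0.0486 by DESeq2, and the adjusted p was 1.0 in each. At day 4 the Id2 difference was −0.19 (SE 0.51). At day 7 it was −0.16 (SE 0.51), but 0.11 (SE 0.47) over the 16 libraries. Over all days co-culture was lower in 7 of 9 pairs. The difference between the day 7 and day 2 effects was 0.84 (SE 0.73), or 1.37 (SE 0.66) over the 16 libraries, with an adjusted p of 0.958 and 1.0 by edgeR, and this contrast too had 0% of genes called (905 at an unadjusted p under 0.05).

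Id1 and Id4 were also lower with neurons in all 3 pairs at day 2. However, replicate 1 alone held only 21 Id1 reads and 2 Id4 reads, in the library where 3 reads were worth 20.2 CPM. Id1 had 89.2, 68.3 and 63.1 CPM with neurons and 141, 116 and 80.1 CPM alone, a log2 difference of −0.57 (SE 0.42) that was −0.42 (SE 0.35) over the 16 libraries. Id4 had 9.02, 13.7 and 26.4 CPM with neurons and 13.4, 24.1 and 34.7 CPM alone, a log2 difference of −0.68 (SE 0.71) that was −0.85 (SE 0.55) over the 16 libraries. The groups overlapped for both genes, and neither difference passed the test. At day 4 Id4 was higher with neurons in 2 of 3 pairs, and at day 7 Id1 was higher in 2 of 3.

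Id3 showed no common direction. At day 2 it had 87.9, 119 and 94.5 CPM with neurons and 53.8, 160.1 and 77.8 CPM alone, so that the values alone lay on both sides of those with neurons. Over the average of days its log2 difference was −0.035 (SE 0.35, 95% interval −0.78 to 0.71). The day 7 difference of −0.20 (SE 0.61) was 0.27 (SE 0.44) over the 16 libraries, since replicate 1 of the day 7 co-culture held only 5.38 CPM of Id3, against 79.7 and 44.3 CPM in the other co-cultures of that day.

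Among the inhibitors, Smad7 blocks type I receptors and recruits ubiquitin ligases to them. Of 30 comparisons over the 10 genes and 3 days, only Smad7 at day 7 had no overlap of co-cultures and cultures alone. The share of all tested genes without overlap is not given here, so this does not single Smad7 out. At day 7 it had 9.25, 16.6 and 17.9 CPM with neurons, against 32.1, 31.7 and 19.9 CPM alone. All 3 co-cultures lay below all 3 cultures alone, by a narrow margin in replicate 3. The log2 difference was −0.93 (SE 0.52, 95% interval −2.02 to 0.17, edgeR adjusted p = 0.593), and it was −0.73 (SE 0.47) over the 16 libraries. At day 2 the difference was −0.83 (SE 0.55), but −0.19 (SE 0.46) over the 16 libraries, which leave out the 101 CPM, from 15 reads, of replicate 1 alone.

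Smad6, the inhibitory Smad that prefers the BMP branch, had 2.86, 9.61 and 5.14 CPM with neurons at day 7, against 17.5, 12.1 and 6.42 CPM alone. It was lower with neurons in 3 of 3 pairs, with overlapping groups and a log2 difference of −1.01 (SE 0.60), which was −0.73 (SE 0.56) over the 16 libraries. At day 2 its direction differed between pairs, from −1.20 to 1.32 on the log2 scale. Bambi, a receptor-like decoy without a kinase domain, was higher with neurons in 7 of 9 pairs, and its average log2 difference was 0.32 (SE 0.29). In the 7 pairs without a library that stood apart, Bambi was higher in 5 and lower in 2. The median log2 difference of those pairs was only 0.015.

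The ligands had the fewest reads of the 10 genes. Bmp4 had 1.11 to 5.45 CPM in the 16 libraries and Bmp7 had 0.692 to 2.74 CPM, and both had 0 reads in the day 2 culture alone that stood apart, where 3 reads were worth 20.2 CPM. The highest Bmp7 value, 6.89 CPM, came from replicate 1 of the day 7 co-culture. At day 7 the Bmp7 log2 difference was 1.06 (SE 0.91) with that library and −0.38 (SE 0.81) over the 16. Over the average of days the log2 differences were −0.27 (SE 0.49) for Bmp4 and 0.60 (SE 0.54) for Bmp7, the second being 0.082 (SE 0.45) over the 16 libraries. For the receptor Bmpr1a the average difference was 0.12 (SE 0.29), with a 95% interval of −0.49 to 0.74.

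**Figure D2:**
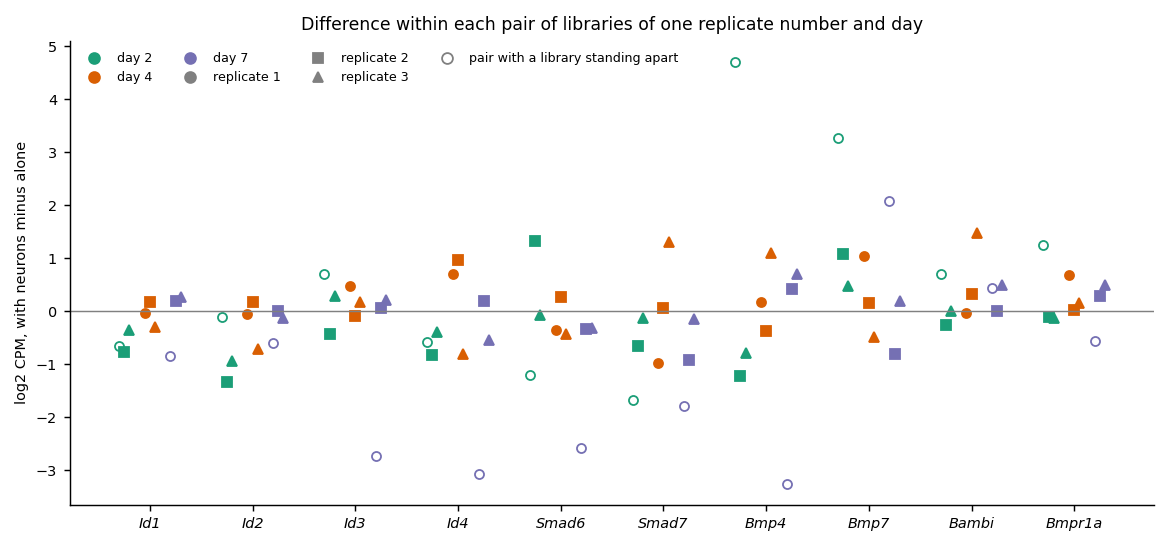
Difference in log2 CPM (prior count 2), with neurons minus alone, within each of the 9 pairs of libraries that share a replicate number and day, for the 10 genes along the horizontal axis. Colours are days and shapes are replicate numbers. Id2 lies between −1.34 and 0.18 with 7 of 9 pairs below 0, while the open points, from the pairs with a library that stood apart, reach −3.25 and 4.71 for Bmp4.

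The second comparison followed the genes over the days. Again 0 of the 10 genes were called by edgeR in the contrasts of day 7 with day 2 (alone, in co-culture and over both), day 4 with day 2, and day 7 with day 4, beside 0% of all tested genes. At an unadjusted p under 0.05 there were 183, 2181, 1244, 353 and 811 genes in these 5 contrasts, among them 1, 1, 2, 0 and 0 of the 10. DESeq2 called 3, 248, 9, 2 and 0 genes, none of them among the 10. For day 7 with day 2 over both kinds of culture, 3 of the 10 genes were higher and 7 lower, with a median of −0.32 against 0.028 for all genes.

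Id3 was lower at each later day in all 6 series of 3 libraries that share a culture and a replicate number. With neurons, replicate 1 had 87.9, 61.4 and 5.38 CPM at days 2, 4 and 7, replicate 2 had 119, 95.9 and 79.7 CPM, and replicate 3 had 94.5, 57.2 and 44.3 CPM. Alone, replicate 1 had 53.8, 44.2 and 36.0 CPM at days 2, 4 and 7, replicate 2 had 160.1, 102 and 76.0 CPM, and replicate 3 had 77.8, 50.6 and 38.1 CPM. The 53.8 CPM rests on 8 reads, in the library where 3 reads were worth 20.2 CPM, so the step from it cannot be read. The 5.38 CPM comes from the other library that stood apart. The share of all tested genes that were lower at each later day in every series is not given here. Levels of the days nevertheless overlapped between replicate numbers, since day 7 in replicate 2 with neurons lay above day 2 in replicate 3 alone. Day 7 minus day 2 was −1.12 on the log2 scale over both cultures (SE 0.44, 95% interval −2.04 to −0.20), with an unadjusted p of 0.0199 and an adjusted p of 0.644 by edgeR. The 4 series without the libraries that stood apart differed by −1.09 to −0.57. With 16 libraries and the replicate number in the edgeR model the difference was −0.98 (SE 0.16), with an adjusted p of 0.0808.

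Id1, the family member most used as a readout of BMP signalling, had a like course in astrocytes alone. It had 141, 55.4 and 36.7 CPM in replicate 1 alone at days 2, 4 and 7, 116, 79.8 and 60.5 CPM in replicate 2 alone, and 80.1, 47.2 and 45.9 CPM in replicate 3 alone. With neurons it had 89.2, 54.5 and 20.3 CPM in replicate 1, 68.3, 89.9 and 69.6 CPM in replicate 2, and 63.1, 38.6 and 55.6 CPM in replicate 3. Day 7 lay below day 2 in each series except replicate 2 with neurons, where both were alike. Day 7 minus day 2 was −1.20 (SE 0.43) alone and −0.60 (SE 0.41) with neurons, and −0.90 (SE 0.30, edgeR adjusted p = 0.644) over both. The gap between these differences was 0.60 (SE 0.59). Over the 16 libraries day 7 minus day 2 was −0.99 (SE 0.35) alone, −0.23 (SE 0.36) with neurons and −0.61 (SE 0.25) over both.

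The other 2 Id genes had no such order. Day 7 minus day 2 over both cultures was 0.11 for Id2 (SE 0.36) and −0.075 for Id4 (SE 0.49), against 0.20 (SE 0.34) and 0.13 (SE 0.40) over the 16 libraries. Among the inhibitors, Smad6 in co-culture had 2.86, 9.61 and 5.14 CPM at day 7, against 11.6, 24.8 and 10.0 CPM at day 2 in replicates 1, 2 and 3. All 3 day 7 values lay below all 3 day 2 values, but the share of all tested genes with such an order is not given here. The log2 difference was −1.38 (SE 0.60, edgeR adjusted p = 0.339), or −1.07 (SE 0.57) over the 16 libraries. Over both cultures day 7 minus day 2 was −0.76 for Smad7 (SE 0.38), −0.51 for Bambi (SE 0.35) and −0.13 for Bmpr1a (SE 0.36), and for Smad7 it was −0.30 (SE 0.32) over the 16 libraries. For the ligands it was 0.31 for Bmp4 (SE 0.61) and 0.61 for Bmp7 (SE 0.67), but −0.12 for Bmp7 (SE 0.56) over the 16 libraries, where 3 of 4 series were lower at day 7. Summed astrocyte markers ran from 1321 to 4839 CPM at day 2, 1018 to 5825 CPM at day 4 and 2048 to 5222 CPM at day 7 in the 16 libraries. The endothelial and mural list summed to 72.2 to 103 CPM at day 2, 64.6 to 113 CPM at day 4 and 58.6 to 69.6 CPM at day 7. Its part in the result was not tested, and in these bulk libraries fewer cells of a type cannot be told apart from less RNA per cell.

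**Figure D3:**
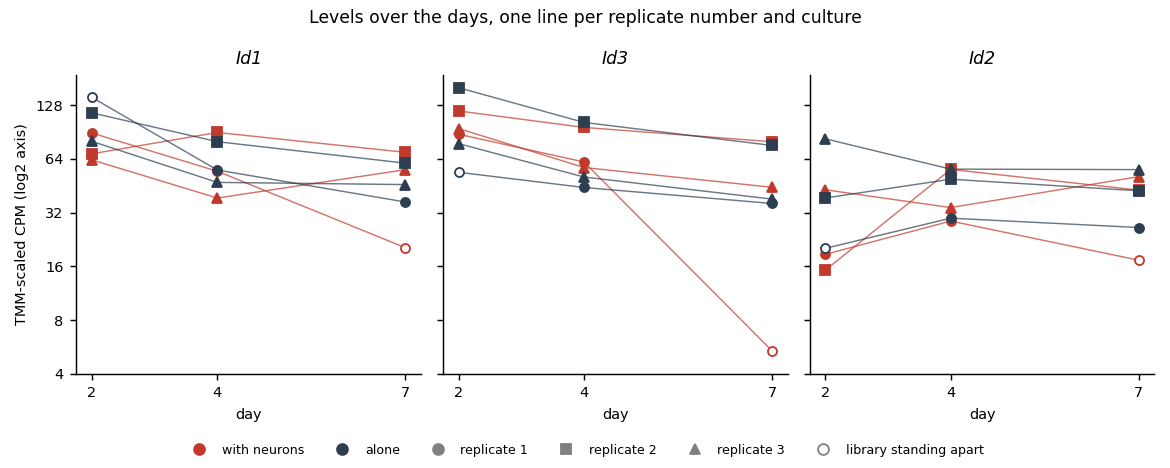
TMM-scaled CPM (log2 axis) of Id1, Id3 and Id2 against day, with 1 line for each replicate number and culture, co-cultures in red and astrocytes alone in dark blue. Id3 is lower at each later day along all 6 lines, with 53.8 to 160.1 CPM at day 2, 44.2 to 102 CPM at day 4 and 5.38 to 79.7 CPM at day 7, while the lines of Id2 cross. The 53.8 CPM (8 reads) and the 5.38 CPM are from the libraries that stood apart, drawn as open points.

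The third comparison asked which genes differed between the 3 replicate numbers, and so between the dates of the labels, with the 6 groups kept in the model. Here 3 of the 10 genes were called by edgeR, namely Id2 (adjusted p = 0.0417), Id3 (adjusted p = 0.0477) and Id4 (adjusted p = 0.0429), beside 5.76% of all tested genes (953 of 16539). Bambi (adjusted p = 0.0856) and Bmpr1a (adjusted p = 0.163) had an unadjusted p under 0.05 only. These calls lie near the threshold. Over the 16 libraries edgeR called Id3 (adjusted p = 0.00185), Id4 (0.0209) and Bambi (0.0398) but not Id2 (0.0613), with 1526 genes called in all. Upper-quartile scaling ended the calls of Id3 (adjusted p = 0.0791) and Id4 (0.0558). When single libraries were left out, the call of Id2 held in 7 of 18 cases, that of Id3 in 2 and that of Id4 in 5.

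The 4 Id genes did not share one order of the dates. For these genes and Bambi, orders within groups are given over 18 libraries. The share of all tested genes with 1 replicate number highest or lowest in 6 of 6 groups is not given here, so such orders single out no gene. Id3 was highest in replicate 2 in 6 of 6 groups, where it had a median of 99.1 CPM (76.0 to 160.1), against 52.8 CPM (36.0 to 87.9) in replicate 1 and 53.9 CPM (38.1 to 94.5) in replicate 3, over the 16 libraries. Replicate 2 minus replicate 1 was 1.29 on the log2 scale over 18 libraries (SE 0.33) and 0.89 over 16 (SE 0.17). Id1 was highest in replicate 2 in 4 of 6 groups, with a median of 74.7 CPM there against 54.9 CPM in replicate 1 and 51.4 CPM in replicate 3, and was not called.

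Id4 was lowest in replicate 1 in 6 of 6 groups. Its medians over the 16 libraries were 11.2 CPM (8.16 to 17.5) in replicate 1, 22.8 CPM (13.7 to 32.3) in replicate 2 and 29.1 CPM (20.6 to 36.2) in replicate 3. Replicate 3 minus replicate 1 was 1.57 (SE 0.38), or 1.29 over the 16 libraries (SE 0.28). Id2 followed a like order and was highest in replicate 3 in 5 of 6 groups, with medians of 27.5 CPM (18.7 to 29.8), 42.5 CPM (15.2 to 55.8) and 53.2 CPM (34.1 to 82.8) in replicates 1, 2 and 3. For Id2 replicate 3 minus replicate 1 was 1.14 (SE 0.27), or 0.98 over the 16 libraries (SE 0.26).

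Bambi ran the other way and was lowest in replicate 3 in 6 of 6 groups, with medians of 31.4 CPM (17.6 to 43.7), 25.2 CPM (20.1 to 33.9) and 13.1 CPM (9.21 to 25.8) in replicates 1, 2 and 3. Replicate 3 minus replicate 1 was −0.98 for Bambi (SE 0.28) and −0.83 for Smad6 (SE 0.40), which was not called. Ratios within a library do not depend on its scaling. The ratio of Bambi to Id2 had medians of 1.08, 0.488 and 0.263 in replicates 1, 2 and 3, and that of Id3 to Id4 had medians of 5.01, 4.88 and 2.14. Bmpr1a had a median of 188 CPM (158 to 253) in replicate 1, against 289 CPM (237 to 382) in replicate 2 and 349 CPM (138 to 401) in replicate 3. Despite these medians, replicate 3 minus replicate 2 was only −0.015 for Bmpr1a over the 16 libraries (SE 0.24).

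Cell type markers also differed between replicate numbers. Over the 16 libraries the astrocyte list summed to 1018 to 2048 CPM in replicate 1, 2169 to 2695 CPM in replicate 2 and 4307 to 5825 CPM in replicate 3. Its genes did not all rise in that order. Gfap had the largest rise, with medians of 130, 492 and 1529 CPM in replicates 1, 2 and 3. Medians of Aldh1l1 (227, 255 and 213 CPM), Slc1a2 (35.7, 251 and 141 CPM) and Slc1a3 (386, 290 and 847 CPM) had other orders, while the remaining listed genes rose. The microglia and macrophage list summed to 2.79 to 59.9 CPM, 83.6 to 374 CPM and 2.66 to 12.9 CPM in replicates 1, 2 and 3, and the meningeal fibroblast list to 6.16 to 31.1 CPM, 14.1 to 68.1 CPM and 44.5 to 160 CPM. The part of these cells in the Id and Bambi differences was not tested. Between co-cultures and cultures alone the same lists overlapped broadly, the astrocyte list at 1321 to 5825 CPM with neurons and 1018 to 5021 CPM alone.

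**Figure D4:**
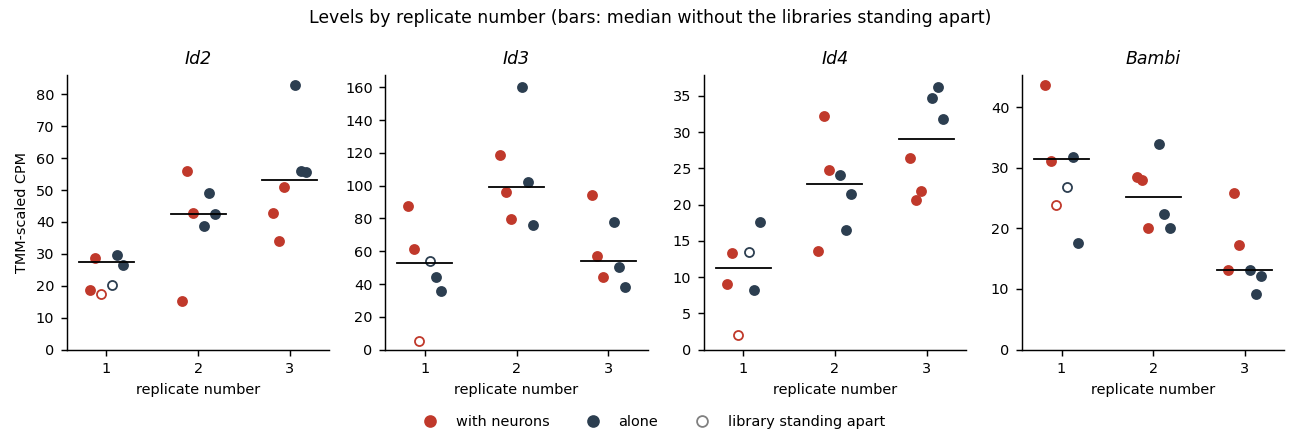
TMM-scaled CPM of Id2, Id3, Id4 and Bambi by replicate number, one point per library, co-cultures in red left of astrocytes alone in dark blue, with open points for the 2 libraries that stood apart. Bars are medians over the other 16 libraries, for example 99.1 CPM for Id3 in replicate 2 and 13.1 CPM for Bambi in replicate 3.

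A wider list of 58 pathway genes gave the setting, of which 50 were tested. In each of the 10 contrasts of culture and day, 0 of the 50 were called by edgeR, and 0 to 5 had an unadjusted p under 0.05. With neurons, 24 were higher and 26 lower at day 2 (median log2 difference −0.014), and 27 higher and 23 lower at day 4 (0.044). At day 7, 20 were higher and 30 lower, with a median of −0.22 against 0.0041 over all tested genes. The day 7 values include the co-culture library that stood apart. Over the average of days, 25 were higher and 25 lower (0.0072). The wider list leaves out the 10 genes described above, Bmpr1a among them. Of its ligands, receptors, co-receptors and Smads, the genes with the highest mean level in their role were Bmp6, Bmpr2, Neo1 and Smad5. Over the 16 libraries Bmp6 had 76.4 to 339 CPM and the type II receptor Bmpr2 had 76.1 to 199 CPM. In the same libraries Fstl1, a secreted follistatin-like protein, had 348 to 1738 CPM and the Smad repressor Ski had 177 to 336 CPM. There the Smad partner Zfp423 had 93.7 to 147 CPM and the E protein Tcf4 had 143 to 435 CPM.

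The genes with the smallest p in the co-culture contrasts are given as values, since none passed the test. Where groups are said not to overlap, the share of all tested genes without overlap is not given here. Fst, the secreted antagonist follistatin, had 60.3, 92.7 and 23.8 CPM with neurons at day 7, against 8.08, 18.7 and 16.7 CPM alone, and the groups did not overlap (log2 difference 2.02, SE 0.79). Tob1, which dampens Smad transcription, had 166, 75.6 and 61.1 CPM with neurons at day 7, against 50.8, 45.4 and 57.7 CPM alone, again without overlap (0.97, SE 0.37). It was 0.53 higher at day 4 (SE 0.36) and 0.49 higher on average (SE 0.21). The 166 CPM of Tob1 and the 60.3 CPM of Fst came from the co-culture library that stood apart. Olig1, a helix-loop-helix factor of the oligodendrocyte lineage, had 66.4, 26.5 and 103 CPM with neurons at day 7, against 66.2, 308 and 202 CPM alone (−1.55, SE 0.66), and its relative Olig2 differed by −0.85 on average (SE 0.44).

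At day 2 the ubiquitin ligase Smurf1 had 117, 105 and 53.0 CPM with neurons, against 40.3, 63.4 and 48.2 CPM alone (0.81, SE 0.38). The 40.3 CPM came from the library in which 3 reads were worth 20.2 CPM. Neo1, a receptor for the BMP co-receptors of the RGM family, differed by 0.42 (SE 0.38). At day 4 Bmp6 differed by 0.53 (SE 0.47) and the co-receptor Rgmb by 0.56 (SE 0.54).

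Between replicate numbers, 9 of the 50 genes were called by edgeR (background 5.76% of all tested genes). They were the ligands Bmp3, Bmp6 and Gdf6, the co-receptor Rgma, Smad5 and Smad9, the antagonists Fst and Fstl1, and the target Atoh8. Each adjusted p here is from the edgeR test over replicates 1, 2 and 3 together, and ranges are over the 16 libraries. Fst had 8.08 to 18.7, 18.7 to 92.7 and 11.1 to 23.8 CPM in replicates 1, 2 and 3 (adjusted p = 0.00679). Smad9 had 6.84 to 9.76, 3.22 to 15.2 and 19.6 to 41.4 CPM in that order (adjusted p = 0.00699). Smad5 had 80.5 to 166, 120.2 to 189 and 182 to 223 CPM (adjusted p = 0.0149). Gdf6 was near 0 in replicate 3, from 0 to 0.82 CPM, against 1.61 to 8.22 CPM in replicate 2 and 3.95 to 51.7 CPM in replicate 1 over the 16 libraries (adjusted p = 0.00317). As with Id2, Id3 and Id4, they did not share 1 order of the dates.

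The genes whose pattern was most like each of the 10 were sought among 6754 genes by Pearson r of log2 CPM over the 16 libraries. Libraries of one replicate number share a date, and depth differs between libraries, so r describes a likeness and was not tested. Id3 was most like Rnpep (r = 0.95), an aminopeptidase, and Thbs2 (r = 0.93), a matrix thrombospondin. Id4 was most like Abcd3 (r = 0.90), a peroxisomal transporter, and Atp1b2 (r = 0.89), the sodium pump subunit typical of astrocytes. Id2 was most like Acat1 (r = 0.88) and Id1 like the pseudogene Gm12715 (r = 0.92). Bambi was most like Coro1b (r = 0.94) and Pld3 (r = 0.94), and Bmpr1a like Pik3r1 (r = 0.91), a subunit of phosphoinositide kinase. Smad6 was most like Phf12 (r = 0.87), Smad7 like Eif2ak4 (r = 0.87), Bmp4 like Ifngr2 (r = 0.78) and Bmp7 like Ccdc157 (r = 0.76).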

How the data were processed

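The authors deposited raw read counts per gene for 18 libraries, made with Subread and featureCounts on mouse build mm9, per the submitters' processing notes. The version and strand setting of both tools were not given in the sources used here. In RefSeq, Id4, Smad7, Bmp4 and Bmp7 overlap long noncoding genes and Bambi has a transcribed pseudogene (Bambi-ps1), so reads of these pairs may not be told apart. Columns were matched to samples by name, and 17 columns of correlations were not used. Symbols (24191 of 26301 Entrez IDs) and promoters came from RefSeq GRCm38.p6 and exon lengths from GENCODE M21. Since that build differs from mm9, coordinates are given only for the printed promoters.

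Counts were analysed in R 4.3.3 with edgeR 4.0.16 by the quasi-likelihood F test, on 1 model of 6 group means over 18 libraries, with TMM scaling, filterByExpr and Benjamini-Hochberg adjusted p under 0.05. The median biological coefficient of variation was 0.569. Replicate number was tested as an added term with 2 coefficients. SEs come from the F statistic, and intervals cover 95%. Log2 CPM used a prior count of 2. Floors of 3 reads cover counting error only. No libraries of a group agreed within sampling noise. Alternatives were the replicate block, 16 libraries, DESeq2 1.42.0, upper-quartile or median-ratio scaling, no filter, and leaving out each library or replicate number. The procedure was tested on simulated data.

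Replicate numbers pair the samples, as the labels give each number 1 date. Correlations of deviations from group means were 0.108 to 0.469 in the 9 pairs of equal number and day, against −0.346 to −0.0102 in the 18 pairs of unequal number. Centring on the mean of each group ties these ranges together, so the negative range adds no separate support for the pairing.

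All 10 genes are named whatever their result, with, of the wider list, the highest mean CPM per role, every called gene and the 3 smallest p per co-culture contrast, and up to 3 genes most like each of the 10 (mean log2 CPM of at least 4). One gene this rule names is not reported here. The genes and lists were chosen with earlier results of these data known.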

Additional observations from a re-analysis of the deposited data

How the results depend on the processing

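None of the 10 genes was called in the 10 contrasts of culture and day under any alternative (2800 values), and 43 of the 100 log2 differences kept their sign in all 28. Among the others, the largest were Bmp7 at day 7 for co-culture against alone (1.06, from −0.53 to 1.46 over the alternatives) and for day 7 against day 2 in co-culture (0.90, from −0.85 to 1.65). Upper-quartile scaling moved the median of all genes by −0.109 at day 2, −0.151 at day 7 and −0.110 on average between co-culture and alone, and the shifts with median-ratio scaling were under 0.1.

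Counts of genes called over the whole table, 0 in each contrast, depended more on the model, and the cause was not tested. With the replicate block, edgeR called 1 gene between co-culture and alone at day 7, 1 between day 7 and day 2 in co-culture and 3 over both cultures. With 16 libraries and the replicate block it called 16 genes at day 2 and 18 at day 7 for co-culture against alone, 17 for day 7 against day 2 alone, 17 in co-culture and 2 over both, 16 for day 4 against day 2, 16 for day 7 against day 4 and 23 for the difference of the effects. The block changed no call of the 10 genes. DESeq2 called 22 genes at day 2 and 5 at day 7, 3 for day 7 against day 2 alone, 248 in co-culture and 9 over both, 2 for day 4 against day 2 and 3 for the difference of the effects, which edgeR put at 0 to 1 when a library or replicate number was left out.

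Between replicate numbers the count was 953, 1526 with 16 libraries and 1942 with DESeq2, which called Id2, Id3, Id4 and Bambi. It ran from 156 to 1630 when a library or replicate number was left out. Leaving out single libraries kept the call of Id2 in 7 of 18 cases, of Id3 in 2 and of Id4 in 5, with adjusted p of 0.0209 to 0.151, 0.00143 to 0.119 and 0.0135 to 0.120. The lowest values of Id3 and Id4 came when the day 7 co-culture with 8966485 reads was left out. The ligands had as few as 25 reads in the 16 libraries, and a biological coefficient of variation of 0.67 for Bmp4 and 0.72 for Bmp7.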
